A study of Mus musculus with 18 samples.

Results

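The mitochondrially encoded transcripts were the 37 genes of 55536 in the deposited table whose symbol begins with mt-. They comprised 2 ribosomal RNAs, 13 messenger RNAs and 22 transfer RNAs, and all 37 lay on the mitochondrial chromosome of the GENCODE M21 annotation (GRCm38). The cells were immortalised mouse embryonic fibroblasts (MEFs) of 3 genotypes: p65 KO, which lack the NF-κB subunit encoded by Rela, IKK2 KO, which lack the kinase encoded by Ikbkb, and WT. Each line was left untreated or received the cytokine TNFα at 10 ng/ml for 45 or 90 min, which gave 9 groups of 2 libraries, here called a and b. The labels used here give each line as immortalised, with no mouse strain or clone, and do not say that libraries came from separate cultures. A genotype and any other difference between the lines therefore cannot be told apart, and the p-values measure the spread between these libraries, which may be technical.

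The mitochondrial genome is transcribed from both strands as long precursors. In most places a tRNA sits between the rRNA and mRNA genes, and excision of the tRNAs releases the neighbouring transcripts, which are then matured and degraded at their own rates. The mRNAs encode core subunits of respiratory complexes I, III, IV and V, the rRNAs build the mitochondrial ribosome, and all other proteins of these machines come from nuclear genes.

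4 of the tRNA genes carry the clearest contrasts between the lines and are shown here as transcribed, 5′ to 3′, from the GENCODE M21 transcripts, with the anticodon in capitals. mt-Tg (glycine) lies between mt-Co3 and mt-Nd3 at chrM:9391-9458, mt-Tr (arginine) between mt-Nd3 and mt-Nd4l at chrM:9808-9875, mt-Tv (valine) between the 2 rRNA genes at chrM:1025-1093, and mt-Tl1 (leucine) between mt-Rnr2 and mt-Nd1 at chrM:2676-2750, each on the plus strand.
mt-Tg: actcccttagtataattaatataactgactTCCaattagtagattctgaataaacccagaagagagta
mt-Tr: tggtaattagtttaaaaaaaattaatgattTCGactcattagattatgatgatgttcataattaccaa
mt-Tv: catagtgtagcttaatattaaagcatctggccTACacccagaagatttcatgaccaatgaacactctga
mt-Tl1: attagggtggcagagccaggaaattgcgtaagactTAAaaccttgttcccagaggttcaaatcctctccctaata
All 22 tRNA genes were 59 to 75 nt long, shorter than the 76 nt reads, so a read counted on a tRNA gene can also carry its neighbours. The library kit kept strand, but the strand setting of the counting was not given in the sources used here, so for the 9 genes on the minus strand (mt-Nd6 and 8 tRNAs) reads from the opposite strand cannot be told apart.

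Libraries held 16708346 to 23469439 assigned counts, and CPM below are counts scaled to a common total per library. Rela had 5.54 and 6.41 CPM in untreated p65 KO cells against 65.01 and 66.92 CPM in WT (log2 change -3.49, edgeR adjusted p = 1.38e-36), as its label has it, whereas Ikbkb was lower than in WT by a similar amount in both IKK2 KO (-0.46) and p65 KO cells (-0.49), so the counts do not check the IKK2 label. The summed level of 8 fibroblast markers was 4824 to 5027 CPM in p65 KO, 9716 to 10111 CPM in IKK2 KO and 11038 to 11361 CPM in WT libraries. Single markers went both ways: Col3a1 was lower (log2 change -3.91) and Dcn higher (1.48) in p65 KO, and Thy1 had 23.4 to 27.1 CPM in IKK2 KO against 0 to 0.05 CPM in WT. The sum of 5 muscle markers was 12.7 to 14.9 CPM in p65 KO, 0.52 to 1.30 CPM in IKK2 KO and 0.18 to 0.47 CPM in WT libraries. The p65 KO sum was almost all Ttn (12.4 to 14.4 CPM). Des was lower in p65 KO (0.09 to 0.43 CPM) than in most IKK2 KO libraries (0.38 to 0.74 CPM), and Myod1 and Myog were at 0 in all 18 libraries. The sum of 5 epithelial markers was 0.60 to 1.25 CPM in p65 KO, 1.87 to 2.97 CPM in IKK2 KO and 0.08 to 0.45 CPM in WT. That of 5 endothelial markers was 0.26 to 0.54, 0.46 to 1.09 and 0.06 to 0.20 CPM in p65 KO, IKK2 KO and WT. The IKK2 KO sums were mostly Krt8 (1.63 to 2.87 CPM) and Cdh5 (0.45 to 1.04 CPM). The sums therefore do not show a marker set moving together. The part of these differences in the results was not tested. Loci that collect cytosolic rRNA reads took 1.81 to 2.63% of counts in p65 KO, 15.9 to 17.3% in IKK2 KO and 11.4 to 12.6% in WT libraries.

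Mitochondrial transcripts took a larger share of all counts in p65 KO than in WT cells at each time. In p65 KO cells the share was 11.3 and 11.6% untreated, 9.65 and 9.63% at 45 min and 7.98 and 9.004% at 90 min. In IKK2 KO cells it was 7.90 and 6.61%, 7.55 and 7.29%, and 6.41 and 7.52% at the same times. In WT cells it was 6.86 and 6.63%, 7.16 and 7.70%, and 7.08 and 7.06%. All 6 p65 KO libraries lay above all 6 WT libraries, and the IKK2 KO libraries overlapped WT. With TMM library sizes, or with the cytosolic rRNA loci left out, 5 of the 6 p65 KO libraries lay above all WT libraries. The mean over 6 libraries was 9.86 ± 1.37% in p65 KO against 7.08 ± 0.36% in WT (SD), a difference of 2.78 percentage points that passed an exact two-sided permutation test within times (p = 0.00926, the smallest the 216 arrangements allow, adjusted p = 0.0278 over 24 tests). The difference was 4.70 points untreated, 2.21 at 45 min and 1.42 at 90 min. The value at 90 min was 0.86 with TMM library sizes and 0.72 with the cytosolic rRNA loci left out, and the test over the 3 times gave the same p in both (2.31 and 2.04 points). IKK2 KO averaged 7.21 ± 0.58% against 7.08 ± 0.36% in WT, a difference of 0.13 points (exact permutation p = 0.657, adjusted p = 0.789). The IKK2 KO difference also depended on the denominator. With TMM library sizes it was 1.43 points untreated, 0.87 at 45 min and 0.75 at 90 min. There 4 of the 6 IKK2 KO libraries lay above all WT libraries. With the cytosolic rRNA loci left out it was 1.03, 0.45 and 0.37 points, with 3 of the 6 above. The total is a share, so more mitochondrial RNA and less of other RNA cannot be told apart. Nor can fewer cells with a given RNA and less of that RNA per cell.

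**Figure D1:**
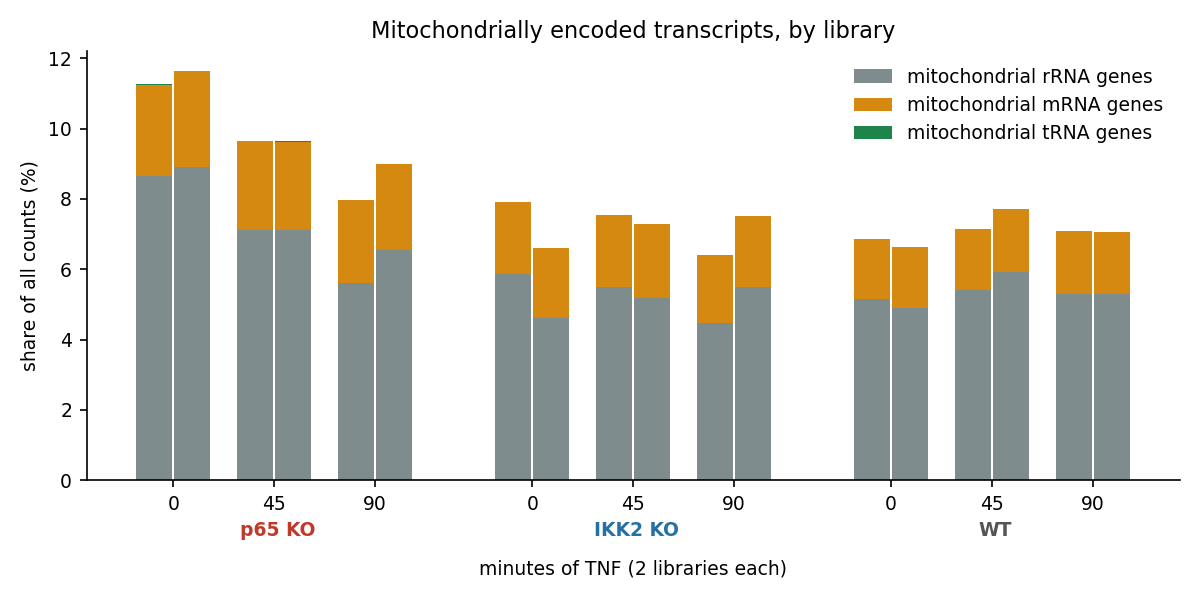
Share of all counts (%) taken by the mitochondrial rRNA, mRNA and tRNA genes in each of the 18 libraries (1 bar each), by line and minutes of TNF. The p65 KO bars run from 7.98 to 11.6% and all stand above the WT bars, which run from 6.63 to 7.70%; the tRNA part is too small to see.

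The 2 rRNAs made up most of the total: mt-Rnr1, the rRNA of the small ribosomal subunit, held 26.4% and mt-Rnr2, of the large subunit, 47.4% of all mitochondrial counts, against 7.73% for mt-Co1, the most counted mRNA. The mRNA share of all counts was 2.53 ± 0.11% in p65 KO, 2.02 ± 0.06% in IKK2 KO and 1.75 ± 0.03% in WT (SD, n = 6 each), and it was higher than in WT in both knockout lines (exact permutation, adjusted p = 0.0278 for each). IKK2 KO cells thus differed from WT in the mRNA share although their total, as a share of all counts, did not pass the test. Their ratio of rRNA to mRNA counts was 2.57 against 3.05 in WT (exact permutation, adjusted p = 0.0494). The ratio was 2.89 in p65 KO against 3.05 in WT (adjusted p = 0.444). Transfer RNA counts per 1000 mRNA counts were 2.30 in p65 KO and 2.40 in IKK2 KO against 1.69 in WT (exact permutation, adjusted p = 0.0278 for each).

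Of the 37 genes, 30 passed the filter on low counts (both rRNAs, all 13 mRNAs and 15 of 22 tRNAs). The 7 tRNAs left out (mt-Tf, mt-Tn, mt-Ty, mt-Td, mt-Tk, mt-Th and mt-Ts2) never exceeded 9.58 counts in a library. With edgeR's quasi-likelihood test over 16322 genes, 21 of the 30 were higher and 5 lower in p65 KO than in WT over the mean of 3 times, where 43.2% of all genes tested were called higher and 45.6% lower. In IKK2 KO, 23 were higher and 1 lower, where 40.3% of all genes were called higher and 43.9% lower. The 23 include mt-Tg and mt-Tr, which passed the filter only through IKK2 KO libraries. mt-Tl2, called higher in both lines, passed it only through knockout libraries. The median log2 change of the 30 was 0.37 in p65 KO and 0.52 in IKK2 KO, beside -0.03 and -0.04 over all genes tested. In untreated cells alone, 20 were higher and 4 lower in p65 KO (39.8% and 41.1% of all genes) and 19 higher and 1 lower in IKK2 KO (35.9% and 38.4%). Both lines were set against the same WT libraries. In every alternative fit described below, 25 of the 26 calls over 3 times in p65 KO and 20 of the 24 in IKK2 KO were kept. For untreated cells alone, 21 of 24 calls were kept in p65 KO and only 12 of 20 in IKK2 KO.

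The scaling matters for IKK2 KO. The TMM scaling used in the tests places all genes 0.17 higher on the log2 scale in IKK2 KO against WT than plain CPM do (-0.17 as plain minus TMM), and 0.06 lower in p65 KO (0.06). Of the called genes in either line, mt-Nd4l and mt-Nd4 in IKK2 KO turned direction with it: they changed by 0.06 and 0.07 with TMM and by -0.11 and -0.10 in plain CPM.

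Complex I, which feeds electrons from NADH into the respiratory chain, showed the widest range of changes. mt-Nd1 had 3872 to 4333 CPM in p65 KO, 2564 to 2753 CPM in IKK2 KO and 2025 to 2106 CPM in WT libraries. The 3 lines did not overlap, and the log2 change was 0.92 ± 0.02 in p65 KO cells (SE, adjusted p = 5.62e-40), beside 0.56 ± 0.02 in IKK2 KO (adjusted p = 1.82e-31). mt-Nd2 had 1662 to 2044 CPM in p65 KO and 1582 to 1757 CPM in IKK2 KO, against 938 to 1018 CPM in WT. Both knockout lines stood above WT, by 0.84 ± 0.02 in p65 KO and 0.95 ± 0.02 in IKK2 KO (log2, edgeR). mt-Nd3 was higher by 0.25 in p65 KO and by 0.63 in IKK2 KO. mt-Nd4l, mt-Nd4 and mt-Nd5 were higher in p65 KO, by 0.25, 0.25 and 0.35, while mt-Nd5 changed by 0.01 ± 0.03 in IKK2 KO (adjusted p = 0.751). mt-Nd6, the only mRNA on the minus strand, had 241 to 322 CPM in p65 KO, 212 to 262 CPM in IKK2 KO and 288 to 324 CPM in WT. Its change did not pass the test in p65 KO (-0.14 ± 0.07, adjusted p = 0.0862) or in IKK2 KO (-0.13 ± 0.07, adjusted p = 0.110).

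The subunits of complex IV, which reduces oxygen, did not move together. mt-Co1, the catalytic subunit, had 7226 to 8094 CPM in p65 KO, 5783 to 6104 CPM in IKK2 KO and 5009 to 5162 CPM in WT. It was higher by 0.51 ± 0.02 in p65 KO and by 0.40 ± 0.02 in IKK2 KO (log2, SE), and mt-Co2, which carries the copper centre that takes electrons from cytochrome c, by 0.56 and 0.44. mt-Co3 went the other way and was the only mRNA called lower in either line. It had 993 to 1073 CPM in p65 KO, 854 to 966 CPM in IKK2 KO and 1056 to 1168 CPM in WT. The IKK2 KO libraries lay below WT and the p65 KO libraries overlapped it in plain CPM, and the TMM-scaled log2 change was -0.20 ± 0.02 in p65 KO (edgeR adjusted p = 2.47e-07) and -0.17 ± 0.02 in IKK2 KO (2.66e-06). Both subunits of ATP synthase encoded here were higher: mt-Atp8 by 0.60 and 0.50 and mt-Atp6 by 0.54 and 0.48 in p65 KO and in IKK2 KO. mt-Cytb, the cytochrome b of complex III, was higher by 0.09 in p65 KO and by 0.39 in IKK2 KO.

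**Figure D2:**
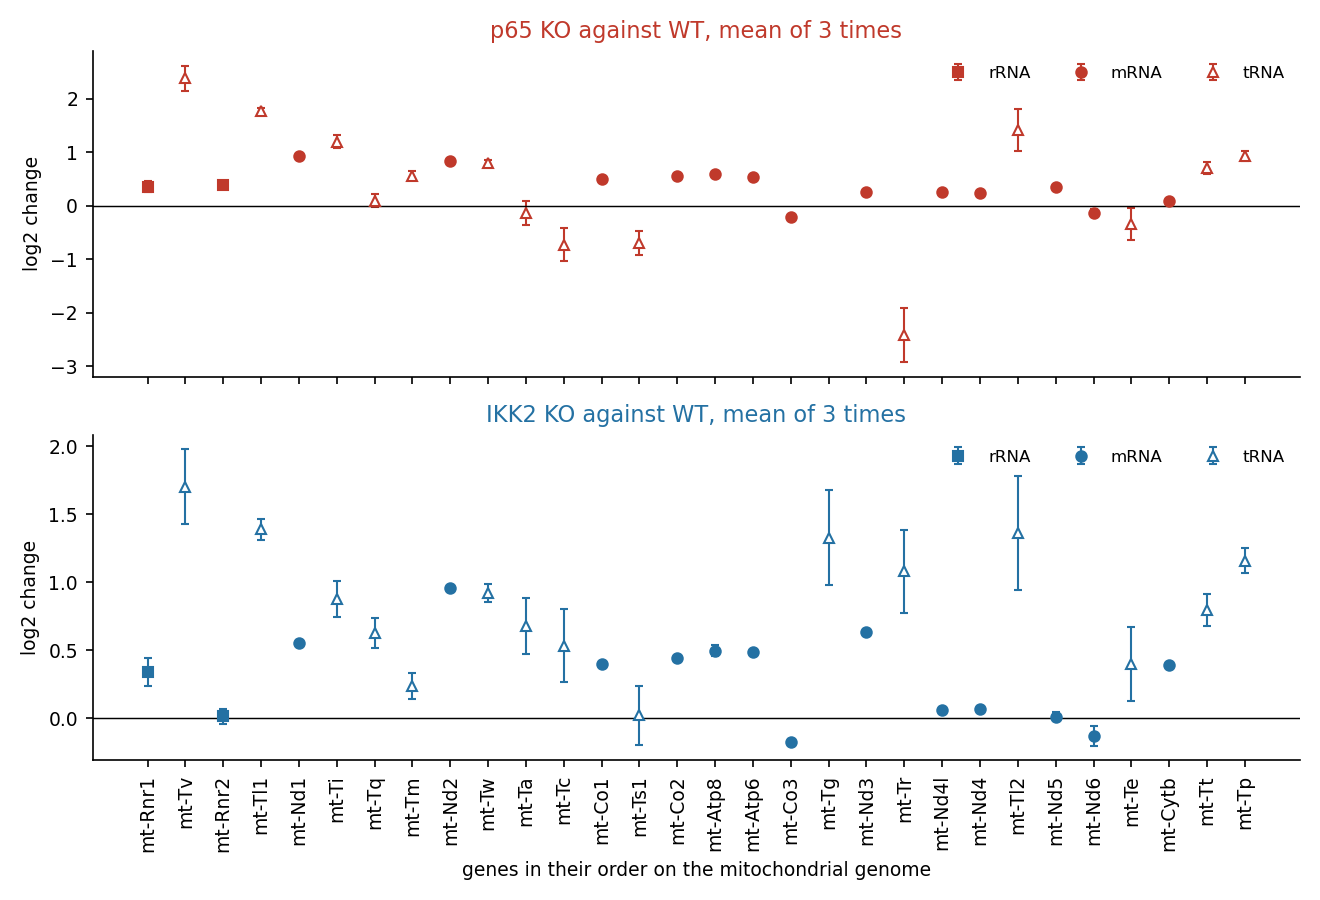
Log2 change against WT (mean of 3 times, bars are SE from the edgeR fit) of the tested genes in their order on the mitochondrial genome, p65 KO above IKK2 KO; mt-Tg is not drawn for p65 KO, where it had 0 counts. mt-Co3 lies below 0 in both panels between genes that lie above it, and mt-Tv and mt-Tl1 are the 2 highest in both.

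Set against the mitochondrial mRNAs alone, which removes the scaling over other genes, the make-up of the mRNA pool differed between the lines. Counts on the nuclear copies described below were left out of this pool. The shares depend on that and were not computed with the copies added. mt-Nd1 made up 16.2% of mitochondrial mRNA counts in p65 KO and 13.4% in IKK2 KO, against 11.8% in WT. mt-Nd2 made up 7.27% and 8.33% against 5.60% in WT. mt-Co3 made up 4.09% in p65 KO and 4.44% in IKK2 KO, against 6.52% in WT. mt-Cytb made up 9.65% in p65 KO against 12.6% in WT. Each of these shares passed an exact permutation test within times (p = 0.00926, the smallest possible, adjusted p = 0.0193 over 52 tests), a family added after the data were seen; since shares sum to a whole, a gain by one gene lowers the others. Passing does not single these genes out. Every mRNA passed at this p in p65 KO, and all but mt-Co1 and mt-Cytb did in IKK2 KO. Among them, mt-Nd6 made up 1.13% in p65 KO and 1.20% in IKK2 KO, against 1.71% in WT.

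**Figure D3:**
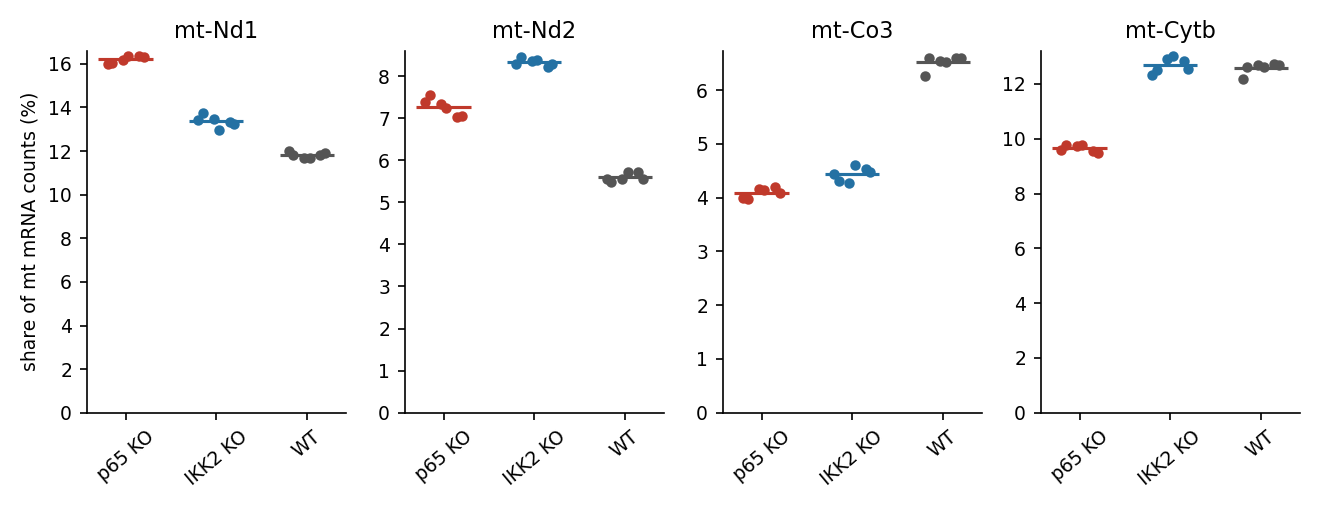
Share of mitochondrial mRNA counts (%) of mt-Nd1, mt-Nd2, mt-Co3 and mt-Cytb in p65 KO, IKK2 KO and WT libraries (points, 6 per line; lines are means). The p65 KO and IKK2 KO points lie above WT for mt-Nd1 and mt-Nd2 and below it for mt-Co3, and only p65 KO lies below WT for mt-Cytb.

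Per length, the rRNAs stood highest: in untreated cells mt-Rnr2 had 34586 and 35592 CPM per kb in p65 KO, 21791 and 18257 in IKK2 KO and 21605 and 20365 in WT. mt-Nd6 had 620.5 and 538.6 CPM per kb in p65 KO, 486.9 and 464.9 in IKK2 KO and 583.7 and 554.0 in WT. For 9 members, 11 annotated nuclear genes shared at least 95% identity, and how reads that match both were assigned was not given in the sources used here. mt-Co3 matched Gm28437 of chromosome 1 over 783 of 784 nt, and the copy held 0.998 to 1.01 counts for each count of mt-Co3 in all 18 libraries; mt-Co2, mt-Nd3 and mt-Nd4l had a copy with a ratio equally near 1, and mt-Atp6 a copy with 1.25 to 1.29 counts for each of its own. If those reads came from the mitochondrial genes, the levels of these members are understated, which was not tested. With the copies added, mt-Co3 in untreated cells came to 2684 CPM per kb in p65 KO, 2247 in IKK2 KO and 2816 in WT, and every called change between lines kept its direction.

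The rRNAs differed less firmly than the mRNAs. Over the mean of the times, mt-Rnr1 was higher by 0.36 ± 0.10 in p65 KO cells (adjusted p = 0.00772), and by 0.34 ± 0.10 in IKK2 KO cells (adjusted p = 0.0115). The mt-Rnr1 excess in p65 KO was not constant over time. Untreated libraries had 31916 and 32893 CPM in p65 KO against 17463 and 16644 CPM in WT. At 45 min they had 24445 and 24713 against 18686 and 20886 CPM. At 90 min p65 KO overlapped WT, with 16476 and 20595 against 18383 and 17916 CPM. mt-Rnr2 was higher by 0.39 ± 0.06 in p65 KO (adjusted p = 8.97e-05) and changed by 0.01 ± 0.06 in IKK2 KO (adjusted p = 0.828). Replicate libraries were far apart in some groups: mt-Rnr1 had 24158 and 17389 CPM in untreated IKK2 KO cells.

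Transfer RNAs showed the largest changes, on few counts. mt-Tv had 1.19 to 3.75 CPM in p65 KO, 0.74 to 1.77 CPM in IKK2 KO and 0.20 to 0.66 CPM in WT. Both knockout lines lay above WT in every library, by 2.39 ± 0.24 in p65 KO and 1.70 ± 0.28 in IKK2 KO (log2, SE). mt-Tl1 had 14.9 to 20.9 CPM in p65 KO, 9.90 to 13.3 CPM in IKK2 KO and 4.22 to 5.75 CPM in WT, a log2 change of 1.77 ± 0.07 in p65 KO and 1.39 ± 0.08 in IKK2 KO. A second leucine tRNA, mt-Tl2, was higher by 1.42 in p65 KO and 1.36 in IKK2 KO, on 2 to 19 counts per library. The isoleucine tRNA mt-Ti was higher by 1.20 and 0.87 in p65 KO and in IKK2 KO, the tryptophan tRNA mt-Tw by 0.79 and 0.92, and the proline tRNA mt-Tp by 0.93 and 1.16.

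2 tRNAs on either side of mt-Nd3 went in opposite directions in the knockout lines. mt-Tg had 0 counts in all 6 p65 KO libraries, 4 to 14 counts in IKK2 KO libraries and 2 to 7.5 counts in WT libraries. Summed over the line, mt-Tg had 0 counts in p65 KO and 27.5 in WT. With 3 counts over the line as the limit that a count of 0 allows, p65 KO lay at least 10.2-fold below the WT estimate. This limit covers counting error in p65 KO only, and that of the WT counts was left out. In IKK2 KO the log2 change of mt-Tg against WT was 1.33 ± 0.35. mt-Tr had 0.5 to 2.5 counts in p65 KO libraries, 7 to 23 in IKK2 KO and 4 to 9.5 in WT. It was lower in p65 KO (log2 change -2.41 ± 0.51, edgeR adjusted p = 3.31e-05), and its log2 change in IKK2 KO was 1.08 ± 0.30. Both genes passed the filter on low counts only through IKK2 KO libraries. Their highest values were 0.727 and 1.14 CPM there, against 0.449 and 0.419 CPM in WT. Their IKK2 KO calls are not independent of that filter, so no p-value is given for them. mt-Ts1 (serine) and mt-Tc (cysteine), both on the minus strand, were lower in p65 KO (log2 change -0.70 and -0.73), and the call of mt-Tc was lost in 7 of 19 alternatives.

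**Figure D4:**
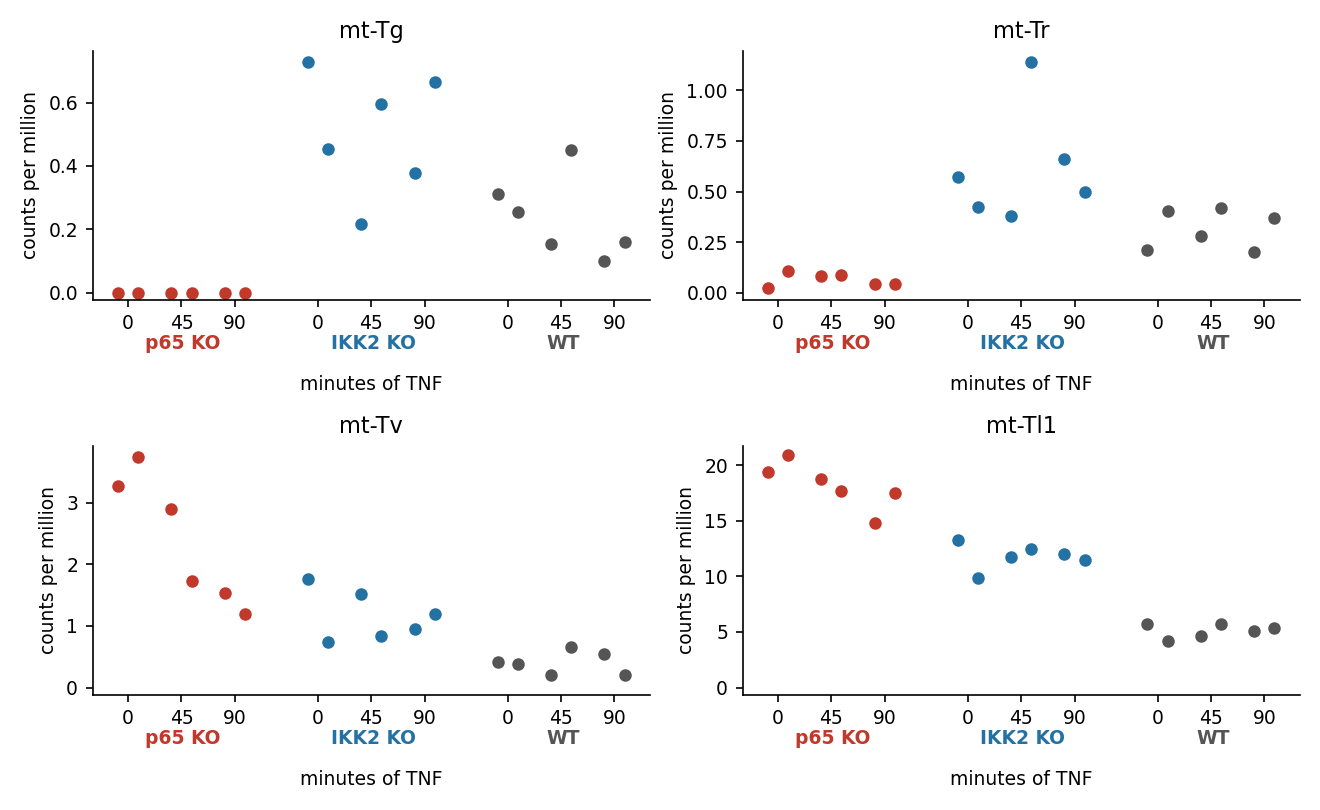
Level (CPM) of mt-Tg, mt-Tr, mt-Tv and mt-Tl1 in each library (points), by line and minutes of TNF. mt-Tg is at 0 and mt-Tr lowest in all p65 KO libraries, while p65 KO libraries lie above WT for mt-Tv and mt-Tl1.

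Several mitochondrial transcripts were lower after TNF in p65 KO cells. The share of all counts at 45 min minus untreated was -1.80 percentage points in p65 KO, 0.16 in IKK2 KO and 0.69 in WT cells, and at 90 min it was -2.95 in p65 KO, -0.29 in IKK2 KO and 0.33 in WT cells. Over the 3 lines together neither difference passed the exact permutation test within lines (-0.32 points, adjusted p = 0.641 at 45 min and -0.97 points, adjusted p = 0.389 at 90 min), and 2 libraries against 2 in one line cannot go below p = 0.333. At 90 min in p65 KO cells 13 of the 30 genes were lower and none was higher, where 2.42% of all genes tested were called lower and 4.06% higher. The median change of the 30 was -0.15, beside 0.00 over all genes. mt-Nd2 had 1662 and 1729 CPM at 90 min against 1906 and 2044 CPM untreated, a log2 change of -0.26 ± 0.03 (edgeR, adjusted p = 1.03e-07). mt-Nd4 had 1374 and 1445 CPM at 90 min against 1601 and 1683 CPM untreated (-0.26 ± 0.04, adjusted p = 1.28e-04). mt-Cytb fell by 0.20 (-0.20 ± 0.03, adjusted p = 1.96e-06), and mt-Co1 by 0.15 (-0.15 ± 0.03, adjusted p = 2.01e-04). In each of these 4 genes the treated libraries lay below the untreated ones. mt-Rnr1 had 16476 and 20595 CPM at 90 min against 31916 and 32893 CPM untreated (-0.85 ± 0.18, adjusted p = 0.0230), and mt-Rnr2 39631 and 44859 CPM against 54716 and 56307 CPM (-0.43 ± 0.10, adjusted p = 0.0309). mt-Tv fell by 1.41 (-1.41 ± 0.25, adjusted p = 1.96e-04). Without library b of untreated p65 KO cells, or without library a of the 90 min group, 5 of the 13 calls were left (mt-Nd2, mt-Nd4, mt-Cytb, mt-Co2 and mt-Tv).

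At 45 min in p65 KO cells mt-Nd2 (-0.13 ± 0.03, adjusted p = 0.0138) and mt-Co1 (-0.12 ± 0.03, adjusted p = 0.0129) were lower, where 0.490% of all genes were called lower; both calls were lost when either 45 min library or library b of the untreated cells was left out (0 calls). The count was 11 when the libraries compared were fitted alone and 5 without the filter on low counts. mt-Rnr1 changed by -0.43 ± 0.18 at this time (adjusted p = 0.361).

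No mitochondrial gene was called lower after TNF in WT or IKK2 KO cells. In WT, edgeR called none of the 30 at 45 min (5 had an unadjusted p under 0.05, and DESeq2 called 0, while 12.2% of all genes were called). At 90 min it called 3, all higher, where 5.81% of all genes were called higher: mt-Nd3 (0.14 ± 0.04), mt-Cytb (0.11 ± 0.03) and mt-Nd2 (0.11 ± 0.03). DESeq2 called 1, as did edgeR without library a of untreated WT cells or without either 90 min library. In IKK2 KO, mt-Cytb was higher at 45 min (0.10 ± 0.03, adjusted p = 0.0197, where 3.33% of all genes were called higher), a call lost without either untreated library or library b of the 45 min group (0 calls), while 3 genes were called without library a of that group. At 90 min edgeR called none (1 had an unadjusted p under 0.05, DESeq2 called 0, and 4.48% of all genes were called), or 2 without library a of that group. Both times share the untreated libraries of their line.

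The difference in response was tested directly. At 90 min the response of p65 KO cells was lower than that of WT cells for 11 genes, where 3.47% of all genes were called lower. These 11 were all mRNAs other than mt-Nd4l and mt-Nd6, with differences between -0.17 (mt-Atp6) and -0.42 (mt-Atp8). For mt-Nd2 the difference was -0.37 ± 0.04 (adjusted p = 1.36e-07) and for mt-Cytb -0.31 ± 0.04 (adjusted p = 2.59e-07). For mt-Rnr1 (-0.97 ± 0.25, adjusted p = 0.0651) and mt-Rnr2 (-0.53 ± 0.14, adjusted p = 0.0636) it did not pass. Without library a of the 90 min p65 KO group 6 of these calls were made, and without library b of untreated p65 KO cells 7. At 45 min it passed for 3 genes, mt-Nd2 (-0.20), mt-Cytb (-0.15) and mt-Co1 (-0.12), where 3.61% of all genes were called lower; leaving out 1 library gave 0 (library b of untreated p65 KO cells) to 5 calls (library a of the same group), and 1 without library a of the 45 min p65 KO group or of untreated WT cells. IKK2 KO cells differed from WT in 1 gene at 90 min, mt-Nd3 (-0.19 ± 0.05, adjusted p = 0.0194, where 1.52% of all genes were called lower, and lost without any of 5 of the 8 libraries involved), and in none at 45 min (edgeR; 1 had an unadjusted p under 0.05, DESeq2 called 0, and 4.86% of all genes were called). Both lines were compared with the same WT response.

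**Figure D5:**
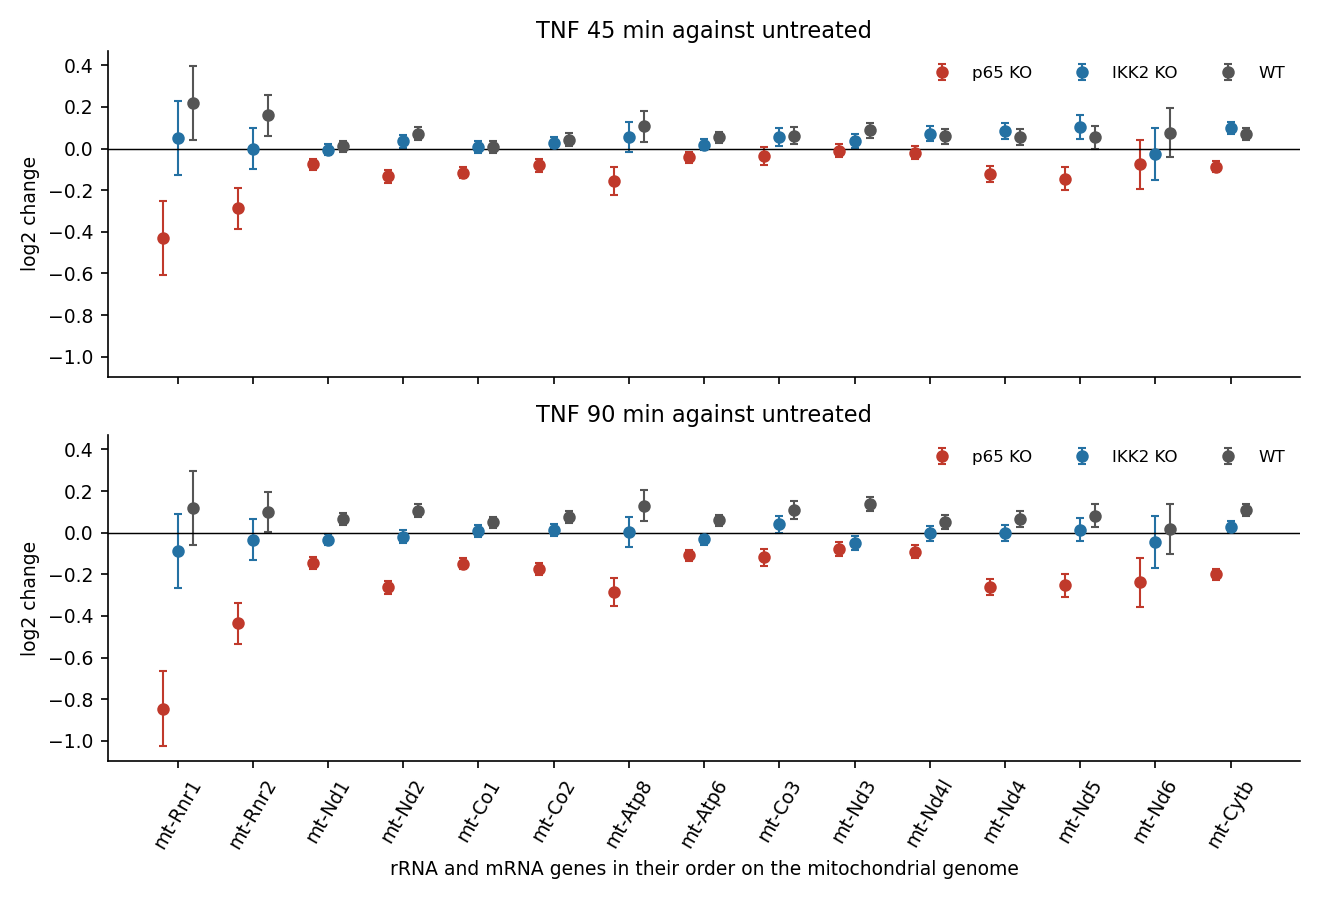
Log2 change after TNF against untreated cells (45 min above, 90 min below; bars are SE) of the rRNA and mRNA genes in p65 KO, IKK2 KO and WT. At 90 min all p65 KO points lie below 0, with mt-Rnr1 lowest at -0.85, and all WT points lie above 0.

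The small cytosolic Y RNA Rny3 was also lower in p65 KO cells: it had 8.07 and 7.27 CPM at 90 min against 13.7 and 15.4 CPM untreated (-0.97 ± 0.13, adjusted p = 1.16e-05, edgeR). At 45 min it already had 8.45 and 7.04 CPM. Other small RNAs went both ways: of 13 tested at 90 min in p65 KO cells, 4 were higher and 4 lower. These were 30.8% each way, beside 4.06% and 2.42% of all genes. The part of Rny3 in the result was not tested. Between libraries of the same group, the library with more mt-Rnr1 also had more Rny3 in 6 of 9 groups, more mt-Nd6 in 8 of 9 and more mt-Rnr2 in 7 of 9. The count was also 7 for Rny1, mt-Nd1 and mt-Tv. It was 5 for mt-Co1, 4 for the small RNA Rn7sk and 3 for the cytosolic rRNA locus Gm26917. Rny3 does not stand out among these genes.

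Nuclear genes of the same machines were mostly called higher in both knockout lines, where 43.2% of all genes were called higher and 45.6% lower in p65 KO, and 40.3% higher and 43.9% lower in IKK2 KO. Of 36 nuclear genes of complex I, 28 were higher and 4 lower in p65 KO, and 29 higher and 6 lower in IKK2 KO. Of 79 tested proteins of the mitochondrial ribosome, 64 were higher and 8 lower in p65 KO (median 0.59) and 57 higher and 13 lower in IKK2 KO (median 0.36). Mrpl28 was higher by 1.34 and 1.24 and Mrps28 by 1.45 and 1.20 in p65 KO and in IKK2 KO. All 9 tested genes of complex III were higher in p65 KO, and 7 were higher and 1 lower in IKK2 KO; Cyc1, the cytochrome c1 of that complex, was higher by 1.03 and 0.90. Of 11 complex IV genes, 10 were higher and 1 lower in p65 KO (Cox4i1, -0.52), and 9 were higher and 1 lower in IKK2 KO.

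Genes that process mitochondrial RNA were split. Of 24, 14 (58.3%) were higher and 7 (29.2%) lower in p65 KO, beside 43.2% and 45.6% of all genes. In IKK2 KO 11 (45.8%) were higher and 8 (33.3%) lower, beside 40.3% and 43.9% of all genes, so the share called higher was near that of all genes. In p65 KO the largest changes were those of Grsf1, a protein of mitochondrial RNA granules (1.17 ± 0.02), Pde12, which removes poly(A) tails (1.14 ± 0.03), and Trnt1, which adds the terminal CCA to tRNAs (1.06 ± 0.02). In IKK2 KO they were those of Tbrg4 (0.96 ± 0.02) and Hsd17b10, a subunit of mitochondrial RNase P (0.92 ± 0.04). Genes of mitochondrial transcription and replication were 5 higher and 5 lower of 15 in p65 KO (33.3% each way, below the share of all genes), with Tfam, which packages the genome and starts transcription, higher by 0.54, and 7 higher and 3 lower in IKK2 KO. In p65 KO cells at 90 min of TNF, 4 of the 36 nuclear complex I genes were lower (11.1%, beside 2.42% of all genes) and 1 was higher (2.78%, beside 4.06%). The 4 were Ndufa6 (-0.26 ± 0.05), Ndufa12 (-0.18 ± 0.04), Ndufa10 (-0.14 ± 0.04) and Ndufv2 (-0.12 ± 0.03), and Ndufa2 was higher (0.37 ± 0.07). The nuclear genes of the other machines were not called lower in this comparison. Complex III had 1 higher and 0 lower of 9, complex IV 2 and 0 of 11, and complex V 2 and 0 of 14. Complex II had 0 of 4 and the mitochondrial ribosome 0 of 79 called in either direction.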

How the data were processed

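Total RNA of 18 libraries was sequenced as paired reads with a directional kit, per the labels' protocols. The submitters' processing notes name GRCm38, the aligner HISAT2, the counter featureCounts (Subread 1.6.2), edgeR 3.26.4, Trimmomatic and FastQC 0.11.8. The deposited values are estimated counts per gene: 31.8% of non-zero values were not whole (tolerance 0.001), so the authors' counting split some reads. The table's columns name the group and not the replicate; libraries a and b follow column order.

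Values were rounded for the tests. edgeR 4.0.16 (R 4.3.3) fitted all 18 libraries with 1 term per group, TMM scaling, filterByExpr and the quasi-likelihood test, with Benjamini-Hochberg adjustment within each comparison over 16322 genes and a threshold of 0.05. DESeq2 1.42.0 was an alternative. CPM are scaled to the total of all counts. Shares were compared by exact permutation within strata (scipy 1.17.1), which with 2 against 2 in a single stratum cannot go below p = 0.333. Nuclear copies were found with BLAST 2.17.0 among annotated transcripts only (at least 95% identity over 50 nt).

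On simulated counts for the p65 KO response at 90 min (15270 genes), edgeR recovered 92% of planted 1.5-fold changes and 100% of 2-fold ones, with 20 false of 216 calls. For the difference in response it recovered 76% and 94%, with 19 false of 204 calls. All mitochondrial genes could be named; of other lists, at most the 4 largest changes past the threshold, and Rela, Ikbkb and Rny3, the last chosen after its values were seen. The members, lists and tests were chosen with earlier results of these data known. The SE come from the edgeR fit and the SD from the 6 libraries of a line, so both include spread between libraries. The limit given for mt-Tg covers counting error only.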

Additional observations from a re-analysis of the deposited data

Results flagged for a closer look

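The response to TNF differed between knockout and WT cells by the test of the difference itself (edgeR, log2, knockout minus WT) for these results. At 90 min in p65 KO cells the difference was -0.21 for mt-Nd1, -0.37 for mt-Nd2, -0.20 for mt-Co1, -0.25 for mt-Co2, -0.42 for mt-Atp8, -0.17 for mt-Atp6, -0.23 for mt-Co3, -0.22 for mt-Nd3, -0.32 for mt-Nd4, -0.33 for mt-Nd5 and -0.31 for mt-Cytb. At 45 min in p65 KO cells it was -0.20 for mt-Nd2, -0.12 for mt-Co1 and -0.15 for mt-Cytb. At 90 min in IKK2 KO cells it was -0.19 for mt-Nd3. Of the 11 differences at 90 min in p65 KO cells, 6 kept their call in all 15 alternatives (mt-Nd1, mt-Nd2, mt-Co1, mt-Co2, mt-Nd4 and mt-Cytb); the 3 at 45 min and the 1 of IKK2 KO cells each lost it in at least 1. Groups of 2 libraries allowed no check for a single library that stands apart.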

How the results depend on the processing

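No paired analysis was possible because the columns carry no replicate number. No called gene changed direction under any alternative of the edgeR or DESeq2 tests run here (plain CPM, described above for IKK2 KO, were not a test). With loci of cytosolic rRNA left out, or nuclear copies added to the members (both chosen after seeing the data), the counts of calls stayed within 1.5 times of those reported. Fits to the libraries compared alone called 2 genes in WT at 45 min, 8 in WT at 90 min, 11 in p65 KO at 45 min, 2 in IKK2 KO at 45 min and 7 for the p65 KO difference at 45 min. Without the filter the counts were 5 in p65 KO at 45 min, 2 in IKK2 KO at 45 min, 6 for the p65 KO difference at 45 min and 2 for the IKK2 KO difference at 90 min. DESeq2 called 1 in WT at 90 min, 1 in p65 KO at 45 min and 0 for the IKK2 KO difference at 90 min. Leaving out 1 library gave 0 to 1 calls in WT at 45 min, 1 to 3 in WT at 90 min, 0 to 3 in p65 KO at 45 min, 5 to 12 in p65 KO at 90 min, 0 to 3 in IKK2 KO at 45 min, 0 to 2 in IKK2 KO at 90 min, 0 to 5 and 6 to 10 for the p65 KO difference at 45 and at 90 min, and 0 to 3 for the IKK2 KO difference at 90 min. The lone library left in a group is assumed to vary like the other groups. The difference in total share between IKK2 KO and WT was 1.02 points with TMM library sizes (exact permutation, adjusted p = 0.0247). For mitochondrial mRNAs as a share of protein-coding counts the difference was 0.495 points. For the mRNAs and tRNAs as a share of all counts it was 0.274 points (exact permutation, adjusted p = 0.0247 for each). Both of these measures leave out the 2 rRNAs, so they do not give the total. The difference in the total share of all counts ran from -0.083 (without library a of untreated IKK2 KO cells) to 0.348 when 1 library was left out. It was -0.052 without library b of the 90 min IKK2 KO cells. The cause of these shifts was not tested. The counts of 7 tRNAs were too low to test.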

Other observations

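Genes of mitochondrial chaperones and the stress response were mostly called higher in both knockout lines, where 43.2% of all genes were called higher and 45.6% lower in p65 KO and 40.3% and 43.9% in IKK2 KO: 11 of 13 (84.6%) were higher and 2 lower in p65 KO (median 0.79) and 11 higher and 2 lower in IKK2 KO (median 0.80), beside medians of -0.03 and -0.04 over all genes. Atf4, a transcription factor of the integrated stress response, was higher by 1.11 ± 0.02 in p65 KO and 1.38 ± 0.02 in IKK2 KO, and Chac1, one of its targets, by 2.76 ± 0.07 and 2.04 ± 0.08 (log2, SE, edgeR). The 17 mitochondrial aminoacyl-tRNA synthetases, which charge the tRNAs described above, were split: 6 were higher and 6 lower in p65 KO (35.3% each way), and 5 higher (29.4%) and 8 lower (47.1%) in IKK2 KO, shares near or below those of all genes. Ears2 (glutamate) was lower in IKK2 KO (-1.40 ± 0.07).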
